A study of Drosophila melanogaster with 15 samples.

Results

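The inducible Hsp70 genes of *Drosophila melanogaster* and their relative *Hsp68* were examined across 2 genotypes and 2 oxygen levels. The set was chosen by gene name and holds 7 genes of the 17031 in the abundance table, namely *Hsp68*, the A copies *Hsp70Aa* and *Hsp70Ab*, and the B copies *Hsp70Ba*, *Hsp70Bb*, *Hsp70Bbb* and *Hsp70Bc*. RNA was taken from whole mated females, about 7 days old, in 15 libraries of 5 flies each, and the study describes the replicates as independent. Control flies (w1118) were kept in ambient air (normoxia, 3 libraries, numbered 2 to 4) or held at 1% oxygen for 16 h (hypoxia, 4 libraries), and *foxo* mutants were treated in the same way (4 and 4 libraries). The mutants carried foxoΔ94, a null allele of the stress-responsive forkhead transcription factor FOXO, from a stock in which it is balanced over TM6B. The mutant group comes from a single stock, so the missing *foxo* function and any other feature of that stock cannot be told apart, and *foxo* lies on the same chromosome arm as all 7 genes.

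Hsp70 proteins are ATP-driven chaperones that bind exposed hydrophobic stretches of unfolded proteins and hold or refold them, with Hsp40 (DnaJ) partners that deliver substrates and nucleotide exchange factors that release them. In flies the stress-inducible forms are made from several near-identical intronless copies, separate from the cognate Hsc70 genes that every cell uses. Heat shock factor (Hsf) binds upstream of these copies and releases RNA polymerase that waits just after the start site. *Hsp68* is a further heat-inducible member of the Hsp70 family that is encoded at a site of its own. The comparisons ask how strongly each gene responded to low oxygen, and whether the response differed in flies without *foxo*.

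All 7 genes are on chromosome arm 3R (dm6 coordinates) and each is annotated with 1 exon. The A pair is divergent, with *Hsp70Aa* (FBgn0013275) at 11954163-11956544 on the minus strand and *Hsp70Ab* (FBgn0013276) at 11958535-11960909 on the plus strand, 1.99 kb apart. *Hsp70Ba* (FBgn0013277) lies 504.54 kb further on, at 12465453-12467776 on the minus strand. After a gap of 34.73 kb, *Hsp70Bbb* (FBgn0051354, 12502510-12504856), *Hsp70Bb* (FBgn0013278, 12505793-12508139) and *Hsp70Bc* (FBgn0013279, 12509076-12511461) follow in tandem on the plus strand with 0.94 kb between neighbours. The *foxo* gene starts 1.55 Mb beyond *Hsp70Bc*, and *Hsp68* (FBgn0001230, 24055080-24057310, minus strand) lies 9.97 Mb beyond *foxo*. The A copies encode proteins of 642 residues, the B copies 641 and *Hsp68* 635. The end of *Hsp70Ab* shares 27 bases with *CG3281*, and the end of *Hsp68* shares 13 bases with *CG6000* and with a noncoding RNA (CR44097), each on the opposite strand. Sequencing used a directional kit, but how strand entered the read assignment is not stated in the sources used here.

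**Figure D1:**
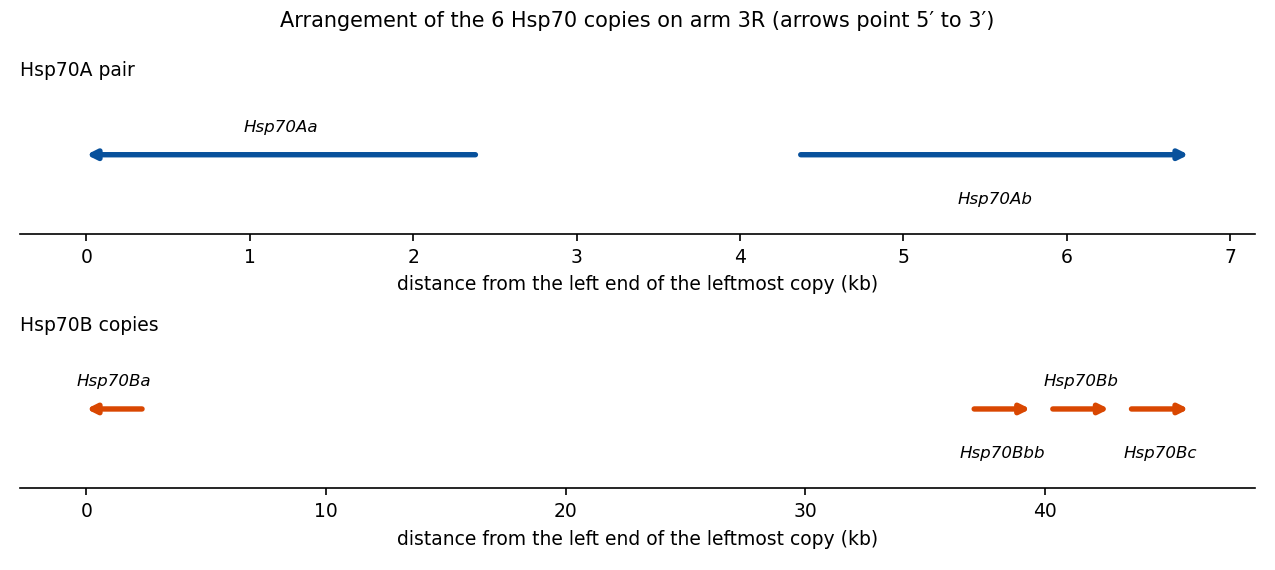
Arrangement of the 6 Hsp70 copies on chromosome arm 3R, drawn to scale within each panel as distance in kb from the left end of the leftmost copy (upper panel, A pair, blue; lower panel, B copies, orange), with arrows pointing 5′ to 3′. The A copies point away from each other across 1.99 kb, and 3 of the 4 B copies form a tandem row separated from *Hsp70Ba* by 34.73 kb.

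Because the copies are near-identical, reads from a given copy often fit another, and the values of single copies are estimates of how kallisto divided shared reads. The summed Hsp70 level over the 6 copies does not depend on that division and is given first. Values are TPM, an abundance corrected for transcript length and scaled to a common total in each library, which keeps no read number, so the depth behind each value is unknown and the only error available is the spread between libraries. Changes are log2 differences of TPM + 1 from a limma fit over all genes, and a gene was called at a Benjamini-Hochberg adjusted p under 0.05 and over 1.5-fold. Genes whose group mean never reached 1 TPM were left out, and 10288 remained. All 7 members passed, but *Hsp70Ba* passed only through w1118 hypoxia, and *Hsp70Bbb* and *Hsp70Bc* only through hypoxic groups. These are the groups where they are high. The counts of members called and the p-values of these copies below therefore describe them. They are no support for a response or for a difference between the genotypes.

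The labels were checked first. In w1118 the *foxo* transcript was at 20.7 ± 0.586 TPM (SD, n = 3) before and 29.8 ± 9.05 TPM (n = 4) after hypoxia, against 0.199 ± 0.0396 and 0.0459 ± 0.0307 TPM (n = 4 each) in the mutants. Hypoxia changed the makeup of the whole-fly RNA. The 6 ovary markers (egg-shell and germ-cell genes) summed to between 12852 and 16496 TPM in w1118 normoxia and to between 592 and 1417 TPM in w1118 hypoxia, and in the mutants to between 5868 and 12994 and between 577 and 2861 TPM. The 4 fat body markers went from 14801-27412 to 2275-4813 TPM in w1118 and from 18581-22571 to 8470-11839 TPM in the mutants, and the 4 midgut markers from 7359-9899 to 1023-1653 TPM and from 10489-13607 to 3241-4894 TPM. The fat body markers are *apolpp* and the yolk protein genes *Yp1*, *Yp2* and *Yp3*. Group means of *apolpp* were 16.7 to 216.2 TPM, so the yolk protein genes make up most of that sum, which may not measure fat body alone. All 4 fat body and all 4 midgut markers fell in both genotypes, and 4 of 6 ovary markers did, all of them egg-shell genes. These counts are at an adjusted p under 0.05 by limma, where 9.84% of all genes fell in w1118 and 13.5% in the mutants. The germ-cell markers *osk* and *vas* were not called in either genotype, with log2 changes of -0.11 and 0.45 in w1118 and -0.42 and 0.26 in the mutants. Of 4 muscle markers 1 fell in each genotype, and of 4 neuron markers 0 fell in w1118 and 1 in the mutants. The 4 testis markers summed to at most 0.412 TPM in any library, and *ProtA* was listed at 0 in all of them. In whole flies, fewer cells of a type and less RNA per cell cannot be told apart, and the part these shifts have in the results below was not tested. The median gene moved by 0.22 on the log2 scale in w1118 hypoxia and by -0.04 in the mutants. After median-of-ratios scaling the shift was 0.002 in w1118, and the genes called there went from 1324 higher and 899 lower to 734 higher and 1269 lower.

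Hypoxia raised the summed Hsp70 message in both genotypes, from a low level to a place among the most abundant transcripts. In w1118 normoxia the sum was 17.8, 17.6 and 15.04 TPM in libraries 2, 3 and 4, and in w1118 hypoxia it was 484, 551, 420.3 and 481 TPM in libraries 1 to 4. The lowest hypoxic library was far above the highest normoxic one. The means were 16.8 ± 1.54 TPM (SD, n = 3) and 484 ± 53.3 TPM (n = 4), a ratio of 28.8 (log2 change of TPM + 1 4.76, SE 0.195, limma adjusted p = 5.15e-10). By mean TPM, the sum moved from rank 5419 to rank 245 of 17026 genes when the 6 copies were counted as 1 gene.

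In *foxo* mutants the summed Hsp70 level started low and ended higher than in w1118. The 4 normoxic libraries held 9.10, 17.0, 14.2 and 14.8 TPM, and the 4 hypoxic libraries held 782, 572, 945 and 848 TPM. Again the groups were far apart, and the first normoxic library was the lowest of all 15. The means were 13.8 ± 3.34 and 787 ± 158 TPM (SD, n = 4 each), a ratio of 57.1 (log2 change 5.74, SE 0.181, limma adjusted p = 1.31e-11). The rank by mean TPM went from 6176 to 164 of 17026. An exact two-sided permutation test of the log2 values gave p = 0.0286 in the mutants and p = 0.0571 in w1118, in each case the smallest p that the design allows.

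*Hsp68* behaved much like the sum. It was at 3.18, 2.33 and 3.67 TPM in w1118 normoxia and at 133.8, 131, 93.4 and 102.1 TPM in w1118 hypoxia. In the mutants it was at 2.34, 2.88, 1.54 and 1.96 TPM in normoxia and at 199.2, 151.5, 225.7 and 207 TPM in hypoxia. No hypoxic library overlapped a normoxic one, and every mutant hypoxic library was above every w1118 hypoxic library. The log2 change was 4.83 (SE 0.200, limma adjusted p = 3.87e-10) in w1118, a ratio of mean TPM of 37.6, and 5.95 (SE 0.185, adjusted p = 6.92e-12) in the mutants, a ratio of 89.8. Per length-corrected message, *Hsp68* stayed below the Hsp70 sum in all 15 libraries. The ratio of *Hsp68* TPM to Hsp70 TPM was 0.185 ± 0.0560 (SD, n = 3) in w1118 normoxia, 0.237 ± 0.0283 (n = 4) in w1118 hypoxia, 0.167 ± 0.0649 (n = 4) in mutant normoxia and 0.251 ± 0.0115 (n = 4) in mutant hypoxia, and its ranges in hypoxia and normoxia overlapped in both genotypes.

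**Figure D2:**
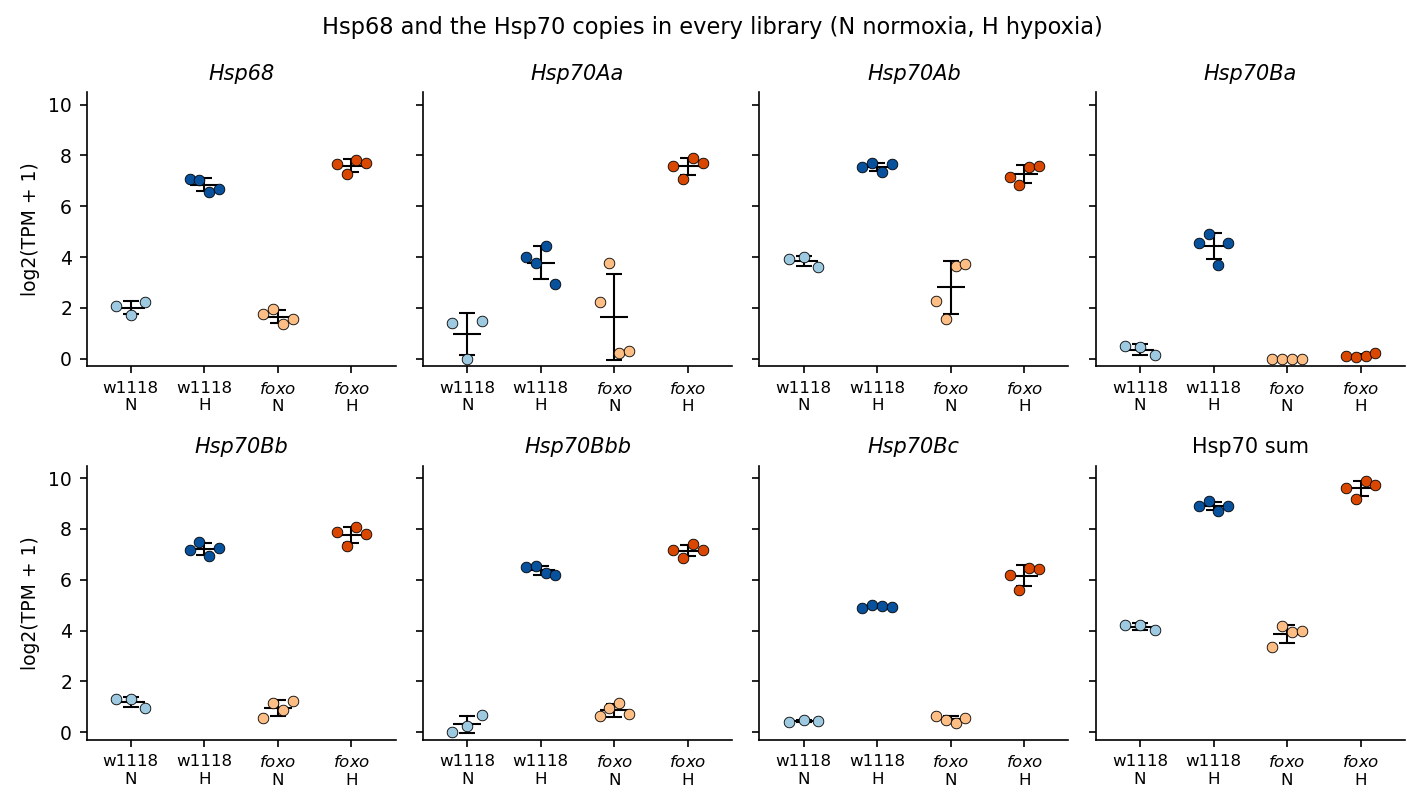
log2(TPM + 1) of *Hsp68*, each Hsp70 copy and the Hsp70 sum in all 15 libraries (N normoxia, H hypoxia; points are libraries, horizontal marks and bars are mean ± SD, with none drawn where every library is at 0). Within each genotype the hypoxic libraries sit above the normoxic ones in every panel, but *Hsp70Ba* stays at or near 0 in all 8 mutant libraries while it reaches 11.9 to 29.0 TPM in w1118 hypoxia.

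Single copies all rose in w1118. Of the 7 members, 7 were called higher in hypoxia, where 12.9% of all genes tested were (8.74% were called lower), and in 7 of 7 the groups did not overlap, where 25.2% of genes had every hypoxic library above every normoxic one. The median log2 change was 4.53 over the members and 0.22 over all genes. *Hsp70Bbb* and *Hsp70Bb* had the largest and second largest log2 rise of the 10288 genes, *Hsp68* ranked 5 and *Hsp70Bc* 6, and *Hsp70Ba*, *Hsp70Ab* and *Hsp70Aa* ranked 16, 22 and 68. The size and order of these rises depend on the pseudocount for copies near 0 in normoxia. With pseudocounts of 5 and 0.1, the w1118 rise was 4.05 and 8.24 for *Hsp70Bbb*, 4.59 and 6.74 for *Hsp70Bb* and 2.72 and 6.07 for *Hsp70Bc*, and all stayed called.

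The tandem B copies went from near 0 to high levels in w1118. *Hsp70Bb* was at 1.47, 1.46 and 0.954 TPM in normoxia and at 142, 179.2, 119.8 and 150.1 TPM in hypoxia (log2 change 6.01, SE 0.212, limma adjusted p = 7.42e-11). *Hsp70Bbb* was at 0.00165, 0.182 and 0.598 TPM and then at 90.9, 91.7, 76.1 and 71.6 TPM (6.07, SE 0.203, adjusted p = 6.48e-11). *Hsp70Bc* was at 0.306, 0.393 and 0.355 TPM and then at 29.0, 31.4, 30.5 and 29.8 TPM (4.53, SE 0.193, adjusted p = 4.86e-10). *Hsp70Bc*, the last of the row, had the lowest hypoxic level of these 3 and the tightest spread of any member, with an SD of 1.03 TPM around a mean of 30.2 TPM. *Hsp70Ba*, the lone copy on the other strand, rose from 0.422, 0.359 and 0.0934 TPM to 22.4, 29.0, 11.9 and 22.5 TPM (4.07, SE 0.216, adjusted p = 5.56e-09).

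The A pair had a measurable level before hypoxia, nearly all of it assigned to *Hsp70Ab*. *Hsp70Ab* was at 11.3 to 15.2 TPM in the 3 libraries of w1118 normoxia and at 184.5, 206.9, 161.1 and 200.5 TPM in w1118 hypoxia (log2 change 3.71, SE 0.400, limma adjusted p = 7.13e-06). *Hsp70Aa* was at 1.61, 9.0e-05 and 1.78 TPM and then at 15.04, 12.5, 20.9 and 6.62 TPM (2.83, SE 0.678, adjusted p = 0.00633). The groups did not overlap for either copy, but the spread between libraries of *Hsp70Aa* was wide.

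In the mutants 6 of 7 members were called higher in hypoxia, where 7.06% of all genes were (11.8% were called lower), and the groups did not overlap for 7 of 7 (10.3% of all genes). The median log2 change was 5.93 over the members and -0.04 over all genes. *Hsp70Bb* and *Hsp70Bbb* again had the largest and second largest rise of the 10288 genes, and *Hsp68*, *Hsp70Aa*, *Hsp70Bc* and *Hsp70Ab* ranked 5, 6, 7 and 11. *Hsp70Ba* ranked 3592.

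*Hsp70Bb* went from 0.458, 1.22, 0.840 and 1.34 TPM to 237.2, 161.3, 267.2 and 221.9 TPM in the mutants (log2 change 6.83, SE 0.197, limma adjusted p = 6.01e-12). *Hsp70Bbb* went from 0.540, 0.910, 1.24 and 0.624 TPM to 141.8, 114.2, 167.7 and 143.1 TPM (6.29, SE 0.188, adjusted p = 6.01e-12). *Hsp70Bc* went from 0.548, 0.401, 0.285 and 0.462 TPM to 71.2, 47.5, 87.1 and 85.04 TPM (5.66, SE 0.179, adjusted p = 6.92e-12). In each of these 3 copies the second hypoxic library was the lowest and the third the highest, an order that *Hsp68* shares. The second mutant hypoxic library was the lowest of its group for 7 of 7 members and the third was the highest for 5 of 7.

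*Hsp70Ba* was the exception. It was listed at 0 in all 4 mutant normoxic libraries and at 0.0717, 0.0493, 0.0649 and 0.153 TPM in the 4 mutant hypoxic libraries. The highest of these 8 values was below the lowest w1118 hypoxic value of 11.9 TPM, and it was not called in the mutants (log2 change 0.12, SE 0.200, limma adjusted p = 0.741). In hypoxia *Hsp70Ba* was 4.31 lower in the mutants than in w1118 on the log2 scale (-4.31, SE 0.200, adjusted p = 8.22e-10), a size that depends on the pseudocount. The difference between the 2 hypoxia responses was 3.95 (SE 0.294, adjusted p = 7.80e-06), the opposite direction to the other 6 members. *Hsp70Ba* passed the filter only through w1118 hypoxia, the group where it is high, so these p-values are descriptive only. TPM cannot tell a copy that is missing or divergent in the mutant stock from a copy that was not transcribed, so these values compare the signal assigned to *Hsp70Ba* and do not show a different response of that copy. Levels of annotated neighbours of *Hsp70Ba* are given as description only. They do not show whether the copy itself is present in the mutant stock, which was not tested. *CG5608* was named after its values were seen. *CG5608*, 154 bases away, was at 9.41 ± 0.463 TPM (SD, n = 3) and 12.6 ± 3.94 TPM in w1118 normoxia and hypoxia and at 9.57 ± 1.77 and 9.44 ± 3.95 TPM (n = 4 each) in the mutants. The alphagamma-element CR32865, a heat-inducible noncoding transcript 7559 bases to the right, rose in both genotypes, from 0.876 ± 0.319 (n = 3) to 5.07 ± 1.19 TPM in w1118 and from 0.731 ± 0.109 to 4.09 ± 0.787 TPM (n = 4 each) in the mutants.

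The A pair in the mutants was uneven between libraries in normoxia and even in hypoxia. *Hsp70Aa* was at 3.74, 12.5, 0.161 and 0.245 TPM in normoxia, and *Hsp70Ab* at 3.81, 1.98, 11.7 and 12.1 TPM in the same libraries. Where 1 copy was high the other was low, and their sum varied less, from 7.56 to 14.5 TPM. In hypoxia *Hsp70Aa* was at 191.9, 135.6, 235.1 and 207.5 TPM (log2 change 5.93, SE 0.628, limma adjusted p = 5.68e-06). *Hsp70Ab* was at 139.8, 113.3, 187.4 and 190.4 TPM (4.47, SE 0.371, adjusted p = 5.25e-07).

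Summing by locus type removes most of this division. The A sum rose from 14.6 ± 1.38 (SD, n = 3) to 202 ± 15.7 TPM in w1118 and from 11.6 ± 2.90 to 350.3 ± 77.7 TPM in the mutants (n = 4 each), with log2 changes of 3.70 (SE 0.202, limma adjusted p = 9.17e-09) and 4.81 (SE 0.187, adjusted p = 1.54e-10). The B sum rose from 2.20 ± 0.199 (n = 3) to 282 ± 38.4 TPM in w1118 and from 2.22 ± 0.452 to 436.4 ± 82.8 TPM in the mutants (n = 4 each), with log2 changes of 6.46 (SE 0.177, adjusted p = 3.26e-12) and 7.08 (SE 0.164, adjusted p = 2.56e-13). As ratios of mean TPM, the B copies rose 128-fold and 197-fold and the A copies 13.8-fold and 30.3-fold.

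**Figure D3:**
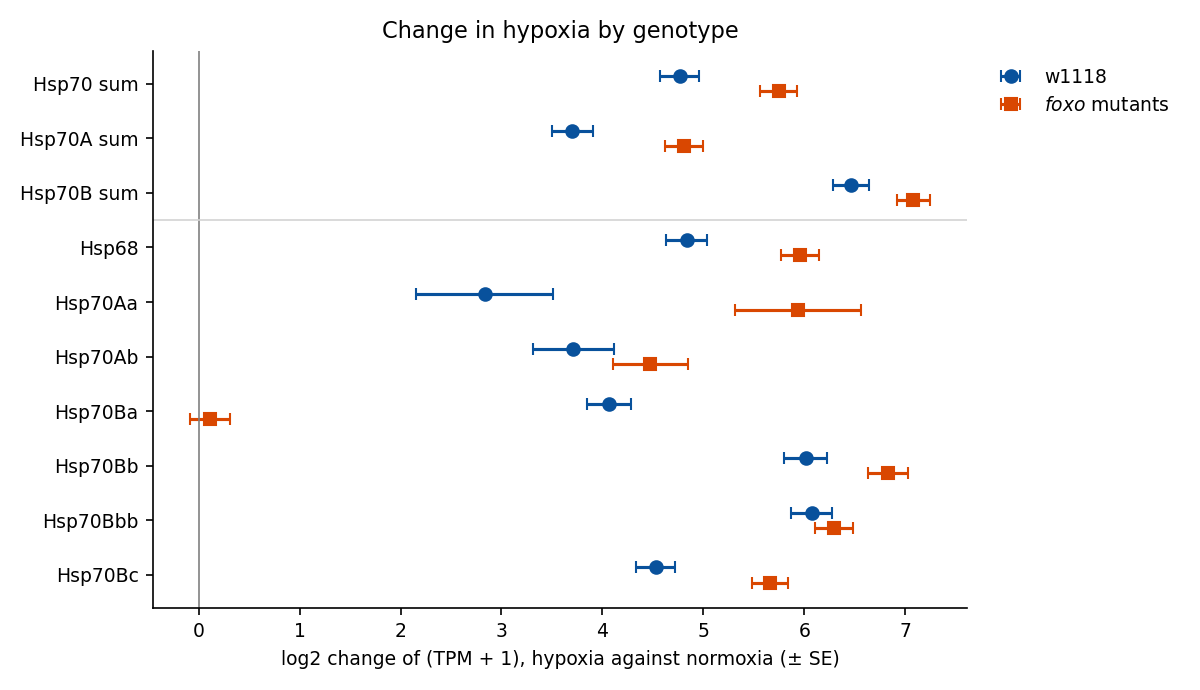
log2 change of TPM + 1 between hypoxia and normoxia (x axis, ± SE) for the sums and the 7 genes in w1118 (circles) and *foxo* mutants (squares). Every estimated change but that of *Hsp70Ba* is larger in the mutants, though most of these differences were not called. The B sum changes more (6.46 and 7.08) than the A sum (3.70 and 4.81).

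The share of the Hsp70 signal assigned to the A pair was lower in every hypoxic than in any normoxic library. It was 86.9 ± 0.655% (SD, n = 3) in w1118 normoxia against 41.9 ± 1.63% (n = 4) in w1118 hypoxia, and 83.8 ± 0.946% and 44.4 ± 1.93% (n = 4 each) in the mutants. Every normoxic library had between 83.0% and 87.6% A signal and every hypoxic one between 39.8% and 46.9%, so that no library lay between the ranges. The differences of -45.0 percentage points in w1118 and -39.4 points in the mutants gave exact two-sided permutation p = 0.0571 and p = 0.0286, the smallest that these group sizes allow (adjusted p = 0.0571 over the 2 tests for both). This comparison was chosen after the shares had been seen.

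Within the pair and within the B copies, 4 shares did not overlap between the genotypes in hypoxia. *Hsp70Aa* took 3.11, 2.27, 4.97 and 1.38% of the Hsp70 signal in w1118 hypoxia and 24.5, 23.7, 24.9 and 24.5% in mutant hypoxia. *Hsp70Ab* took 38.1, 37.6, 38.3 and 41.7% in w1118 and 17.9, 19.8, 19.8 and 22.4% in the mutants. The differences, mutant minus w1118, were 21.5 and -18.9 percentage points for these 2 copies, while the share of the pair differed by 2.54 points with overlapping groups (exact permutation p = 0.114, adjusted p = 0.16). *Hsp70Ba* took 4.35 ± 1.05% in w1118 and 0.0107 ± 0.00503% in the mutants, and *Hsp70Bc* 6.28 ± 0.686% and 9.16 ± 0.706% (SD, n = 4 each). No overlap was seen for *Hsp70Aa*, *Hsp70Ab*, *Hsp70Ba* and *Hsp70Bc*, each with exact permutation p = 0.0286, the smallest possible, and an adjusted p of 0.05 over the 7 shares, which is not under the threshold. The shares of *Hsp70Bb* (30.4 and 28.2%) and *Hsp70Bbb* (17.1 and 18.2%) overlapped between the genotypes (p = 0.143 and p = 0.4, exact permutation).

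**Figure D4:**
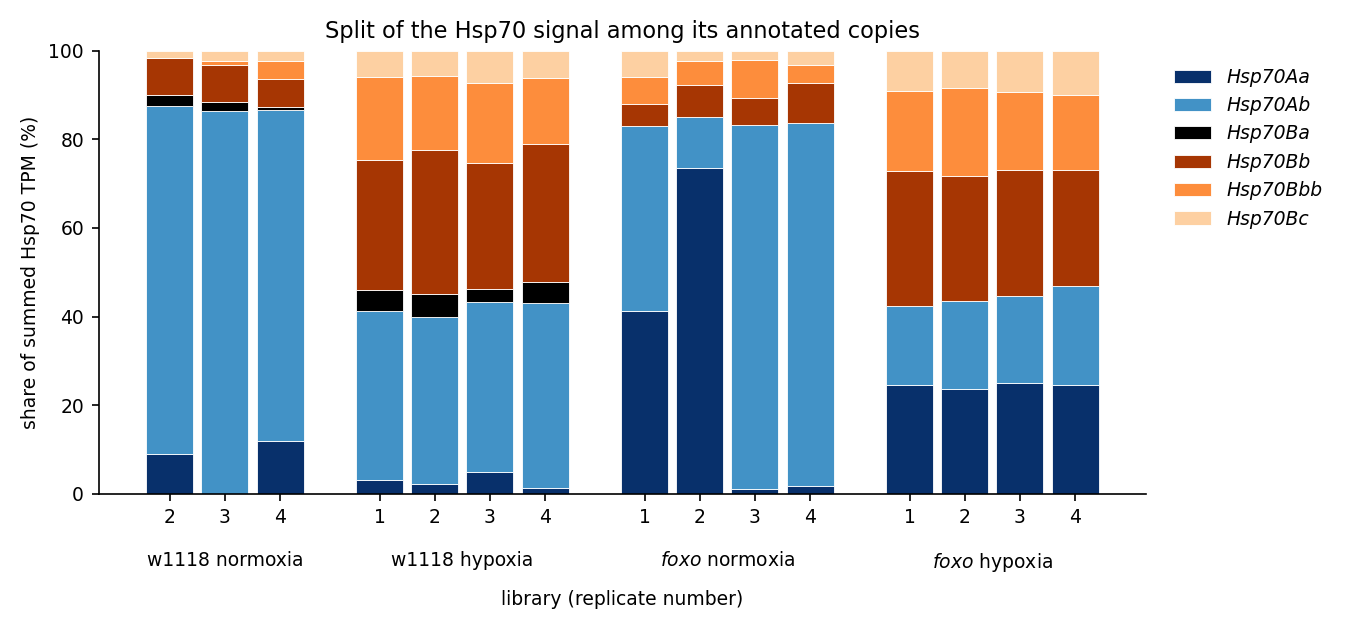
Share of the summed Hsp70 TPM (y axis, %) assigned to each copy in each of the 15 libraries (bars, grouped by genotype and oxygen; blue shades are the A pair, black is *Hsp70Ba*, orange shades are the tandem B copies). The blue part covers 83.0 to 87.6% of every normoxic bar and 39.8 to 46.9% of every hypoxic bar, and *Hsp70Aa* takes 23.7 to 24.9% in mutant hypoxia but 1.38 to 4.97% in w1118 hypoxia.

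Of the 7 members, 0 were called in mutant against w1118 normoxia by limma, where 5.14% of all genes were called higher and 2.84% lower, and 2 of 7 had an unadjusted p under 0.05 (*Hsp70Ab* 0.0199 and *Hsp70Bbb* 0.0162), where 20.2% of all genes had. The Hsp70 sum differed by -0.30 (SE 0.195, adjusted p = 0.443) and *Hsp68* by -0.36 (SE 0.200, adjusted p = 0.351), and for both the libraries of the genotypes overlapped. With a pseudocount of 0.1 in place of 1, 2 members were called, *Hsp70Ba* lower (-1.84, adjusted p = 0.00704) and *Hsp70Bbb* higher (1.71, adjusted p = 0.0295) in the mutants. Without the fourth mutant normoxic library *Hsp70Ab* was called lower (-1.35, adjusted p = 0.0449).

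In hypoxia the values assigned to most of these genes were higher in the mutants. Those of single Hsp70 copies depend on how shared reads were divided, which the Hsp70 sum below and *Hsp68* do not. For *Hsp70Aa* a higher share of the Hsp70 signal in the mutants (24.4 against 2.93%) came with a lower share for *Hsp70Ab* (20.0 against 38.9%). Of the 7 members 4 were called higher in the mutants, where 6.91% of all genes were, and 1 lower, where 7.34% of genes were, and the groups did not overlap in 5 of 7 (7.67% of all genes had every mutant library higher and 8.49% every mutant library lower). *Hsp68* was higher by 0.76 (SE 0.185, limma adjusted p = 0.00887), 1.70 times as a ratio of means. *Hsp70Aa* was higher by 3.78 (SE 0.628, adjusted p = 4.55e-04), *Hsp70Bbb* by 0.77 (SE 0.188, adjusted p = 0.00944) and *Hsp70Bc* by 1.20 (SE 0.179, adjusted p = 1.74e-04). *Hsp70Bb* (0.57, SE 0.197, adjusted p = 0.0579) and *Hsp70Ab* (-0.28, SE 0.371, adjusted p = 0.600) were not called, and their groups overlapped. The *Hsp70Bbb* call was lost with a pseudocount of 0.1 (0.77, adjusted p = 0.219). *Hsp70Bb* was called after median-of-ratios scaling (0.83, adjusted p = 0.00546), and also without w1118 hypoxia library 2 (0.67, adjusted p = 0.0428) or mutant hypoxia library 2 (0.72, adjusted p = 0.0186).

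The Hsp70 sum was higher in mutant hypoxia by 0.68 (SE 0.181, limma adjusted p = 0.0157), 1.63 times as a ratio of means, with every mutant library above every w1118 library. The call was lost without w1118 hypoxia library 3 (0.62, adjusted p = 0.0527) or without mutant hypoxia library 3 (0.59, adjusted p = 0.0634). The Hsp70 sum and the B sum include *Hsp70Ba*, at a mean of 21.5 TPM in w1118 hypoxia and 0.0848 TPM in mutant hypoxia. If that copy is missing or divergent in the mutant stock, the sums do not cover the same copies in both genotypes, which was not tested. The A sum was higher by 0.77 (SE 0.187, adjusted p = 0.00936) without overlap. The B sum was higher by 0.62 (SE 0.164, adjusted p = 0.0159), but 1 mutant library, at 323.1 TPM, fell below the highest w1118 library, at 331.4 TPM. The B sum lost its call without w1118 hypoxia library 3 (0.54, adjusted p = 0.0562), mutant hypoxia library 1 (0.59, adjusted p = 0.0519) or mutant hypoxia library 3 (0.52, adjusted p = 0.0687). Some tissue markers were also higher in mutant than in w1118 hypoxia at an adjusted p under 0.05 by limma. These were all 4 fat body, 3 of 4 midgut and 3 of 4 muscle markers, with median log2 differences of 1.63, 1.68 and 0.76. Of all genes 6.91% were called higher, which also needed over 1.5-fold. Of 6 ovary and 4 neuron markers 0 were higher and 0 lower, with medians of 0.003 and -0.35. The part of tissue makeup in the Hsp70 difference was not tested.

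The response itself was compared through the interaction, the change in w1118 minus the change in the mutants, called at an adjusted p under 0.05. Its estimate was negative for 6 of 7 members, that is, the estimated rise of log2(TPM + 1) was larger in the mutants. The Hsp70 copies share reads, and most of these differences were not called. For *Hsp70Bbb* the ratio of mean TPM went the other way, at 317 in w1118 and 171 in the mutants. Among tissue markers the interaction was also negative for all 4 fat body markers (median -1.30, with *Yp2* and *Yp3* called) and all 4 midgut markers (median -0.91, with *alphaTry* called). It was positive for all 4 neuron markers (median 0.85, 0 called), and the ovary and muscle medians were -0.41 and -0.19 (0 called). The part of tissue makeup in the members' values was not tested. Of the 6 members with a negative interaction, *Hsp68* (-1.12, SE 0.273, limma adjusted p = 0.0402) and *Hsp70Bc* (-1.13, SE 0.263, adjusted p = 0.0307) were called, where 1.07% of all genes were called in that direction. *Hsp70Ba* was the only member called in the other, where 1.55% of genes were. *Hsp70Aa* (-3.10, SE 0.924, adjusted p = 0.109), *Hsp70Bb* (-0.82, adjusted p = 0.197), *Hsp70Ab* (-0.76, adjusted p = 0.593) and *Hsp70Bbb* (-0.22, adjusted p = 0.736) were not called. *Hsp70Aa* was called with a pseudocount of 5 (-3.03, adjusted p = 0.00367) and without mutant normoxia library 2 (-3.81, adjusted p = 0.0105), the library in which it stood at 12.5 TPM. *Hsp70Bb* was called after median-of-ratios scaling (-1.10, adjusted p = 0.0477), and the sign of *Hsp70Bbb* turned with a pseudocount of 0.1 (0.94, adjusted p = 0.580).

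Calls on these differences changed when single libraries were left out. The *Hsp68* call was lost without any of 10 of the 15 libraries (w1118 normoxia 2 and 4, w1118 hypoxia 3 and 4, mutant normoxia 1, 3 and 4, mutant hypoxia 1, 3 and 4), with values from -1.26 to -1.01 and an adjusted p of up to 0.131 over all 15 omissions. The *Hsp70Bc* call was lost without w1118 normoxia 2, 3 or 4, w1118 hypoxia 4, any mutant normoxia library, or mutant hypoxia 1 or 3, with adjusted p of 0.0528 to 0.0892 in those cases. For the Hsp70 sum the interaction was -0.98 (SE 0.266, limma adjusted p = 0.0714) and was not called. It was called without mutant hypoxia library 2 (-1.13, adjusted p = 0.0224) and after median-of-ratios scaling (-1.28, adjusted p = 0.0132), which removes the shift of 0.227 in the median gene. The A sum had an interaction of -1.11 (SE 0.275, adjusted p = 0.0444), a call kept only without mutant normoxia library 2 or mutant hypoxia library 2 among the 15 omissions (-0.94 to -1.26, adjusted p up to 0.117). A replicate block in the fit also ended it (-1.04, adjusted p = 0.0755), as did no filter on low values (adjusted p = 0.0593), a filter at 5 TPM (0.0512), a pseudocount of 0.1 (0.0561) and no trend in the variance (0.0541), so the call held in 3 of 8 other settings. The B sum was not called (-0.62, SE 0.241, adjusted p = 0.258).

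The order of the levels was the same for the Hsp70 sum, *Hsp68*, *Hsp70Bb*, *Hsp70Bbb* and *Hsp70Bc* at the upper end, with mutant hypoxia above w1118 hypoxia and both above the normoxic groups, and only for *Hsp70Bb* did the 2 hypoxic groups overlap. The 2 normoxic groups overlapped in each of these 5. *Hsp70Ab* was higher in w1118 than in mutant hypoxia by mean (188.2 against 157.7 TPM) but the libraries overlapped. *Hsp70Ba* was the member with a single high group.

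The gene whose pattern was closest to that of *Hsp68* was *Hsp70Bc*, with a root mean square difference of 0.34 between the centred log2(TPM + 1) values over 15 libraries, followed by *Hsp70Bbb* (0.52), *Hsp70Bb* (0.57), *ImpL3* (0.75), which encodes lactate dehydrogenase, and the small chaperone gene *Hsp23* (0.76). The Hsp70 sum lay closer still to *Hsp68* (0.26). The 6 copies, which make up the sum, were left out when genes were ranked by likeness to it. After *Hsp68*, the remaining genes most like the sum were *ImpL3* (0.68), *Hsp23* (0.74), the antimicrobial peptide gene *AttA* (0.77) and the glutathione S-transferase gene *GstD2* (0.78). *ImpL3* went from 14.2 ± 2.78 (SD, n = 3) to 247.5 ± 34.2 TPM in w1118 and from 24.8 ± 11.6 to 573.5 ± 85.3 TPM (n = 4 each) in the mutants. The measure uses the same 15 libraries for every gene and describes likeness of levels only.

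Part of the other genes of the heat shock system rose as well. Of 43 such genes 40 passed the filter, and 14 rose and 0 fell in w1118 at an adjusted p under 0.05, where 16.2% of all genes rose and 9.84% fell. In the mutants 15 rose and 0 fell, where 9.34% and 13.5% of all genes did. The median log2 change of the 40 was 0.29 in w1118 and 0.20 in the mutants, against 0.22 and -0.04 over all genes. In mutant against w1118 hypoxia 3 were higher (*Hsp67Bc*, *l(2)efl*, *Gp93*) and 2 lower (*Hsc70-1*, *DnaJ-H*) at a limma adjusted p under 0.05. The median difference was -0.11, against -0.22 over all genes. Of all genes 6.91% were called higher and 7.34% lower, which also needed over 1.5-fold.

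Among the regulators, *Hsf*, the transcription factor of the heat shock genes, rose from 43.5 ± 5.38 (SD, n = 3) to 83.1 ± 10.4 TPM in w1118 (log2 change 0.92, limma adjusted p = 0.00884) and from 41.9 ± 6.56 to 69.2 ± 24.9 TPM (n = 4 each) in the mutants (0.65, adjusted p = 0.0377). *DnaJ-1*, an Hsp40 partner of Hsp70, rose by 1.16 in w1118 (adjusted p = 0.00145) and 1.27 in the mutants (adjusted p = 0.000336). *Sirt1*, a deacetylase whose mammalian relative acts on heat shock factor, rose in w1118 (0.99, adjusted p = 0.0206) and was at 0.68 (adjusted p = 0.0816) in the mutants. *Hsp83*, the cytosolic Hsp90, was at 1090 ± 53.1 TPM in w1118 normoxia and 1280 ± 240 TPM in hypoxia and was not called in either genotype (0.21 and 0.15). In all, 3 of 6 genes for the factor and its control rose in w1118 and 2 of 6 in the mutants. Over all genes 16.2% and 9.34% did.

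The small heat shock proteins, ATP-independent holders of unfolded proteins, had the highest median change of the protein-coding lists in both genotypes. Of 9 genes 6 rose in w1118 and 8 in the mutants, with medians of 0.61 and 1.57, where 16.2% and 9.34% of all genes rose. *Hsp23* rose from 17.6 ± 3.76 (SD, n = 3) to 213.1 ± 31.0 TPM in w1118 (3.53, limma adjusted p = 3.69e-08) and from 2.82 ± 0.592 to 268.7 ± 81.4 TPM (n = 4 each) in the mutants (6.11, adjusted p = 1.48e-11), and the difference between these was called (-2.58, adjusted p = 0.000291). Its normoxic level was called lower in the mutants (-2.28, limma adjusted p = 6.40e-06), and its hypoxic level was not called different (0.30, adjusted p = 0.328). *Hsp22*, the mitochondrial form, rose by 2.90 and 3.99 (interaction adjusted p = 0.0574), and *Hsp67Bc* by 1.86 and 2.69. *l(2)efl*, an alpha-crystallin relative, rose in the mutants (1.86, adjusted p = 2.17e-05) and was at 0.47 in w1118 (adjusted p = 0.172), a difference that was called (-1.39, adjusted p = 0.0406). *Hsp26* rose by 0.61 and 0.81 from 1283 and 1092 TPM in normoxia, and *Hsp67Ba* and *Hsp67Bb* (listed as *CG4456*) rose in both genotypes. *Hsp27* was not called in either (0.34 and 0.60), and *CG14207* rose in the mutants (0.58, adjusted p = 0.039) and was at 0.55 in w1118 (adjusted p = 0.0628), with no call for the difference (adjusted p = 0.964).

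Most constitutive relatives of Hsp70 were not called. *Hsc70-4*, the main cytosolic cognate, was at 1998 ± 64.7 TPM (SD, n = 3) before and 2097 ± 369 TPM (n = 4) after hypoxia in w1118 (0.05, limma adjusted p = 0.844), above the Hsp70 sum in every group. *Hsc70-3* of the endoplasmic reticulum, *Hsc70-5* of the mitochondrion and *Hsc70Cb*, an Hsp110 relative, were not called in either genotype. *Hsc70-1* rose in w1118 by 0.48 (adjusted p = 0.0457) from 6.04 to 8.88 TPM, and *Hsc70-2*, below 1 TPM in every group, was not tested. Of 5 tested, 1 rose in w1118 and 0 in the mutants by limma, where 16.2% and 9.34% of all genes did.

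Among 14 tested cochaperones 3 rose in each genotype, where 16.2% of all genes rose in w1118 and 9.34% in the mutants. The medians of this list were 0.17 and -0.02, against 0.22 and -0.04 over all genes. *stv* (starvin), a BAG-domain nucleotide exchange factor, rose from 10.6 ± 1.68 (SD, n = 3) to 47.04 ± 13.2 TPM in w1118 (2.02, limma adjusted p = 8.96e-06) and from 12.3 ± 1.76 to 57.4 ± 12.1 TPM (n = 4 each) in the mutants (2.12, adjusted p = 2.69e-06). The Hsp40 genes *DnaJ-1* and *DnaJ-H* were the others, the latter by 0.96 and 0.66. *Hop*, *HIP*, *CHIP* (listed as *STUB1*), *Droj2*, *mrj*, *Roe1*, *Hsc20*, *Tpr2*, *jdp*, *CG5001* and *HIP-R* were not called in either. Of 7 tested genes for Hsp90 proteins, their partners and chaperonins, 0 rose in w1118 and 1 in the mutants, *Gp93* of the endoplasmic reticulum (0.64, adjusted p = 0.000665; interaction -0.75, adjusted p = 0.0258). The noncoding heat shock RNA *Hsromega* rose by 0.76 and 1.12, and with the alphagamma-element both of the noncoding transcripts rose in both genotypes.

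**Figure D5:**
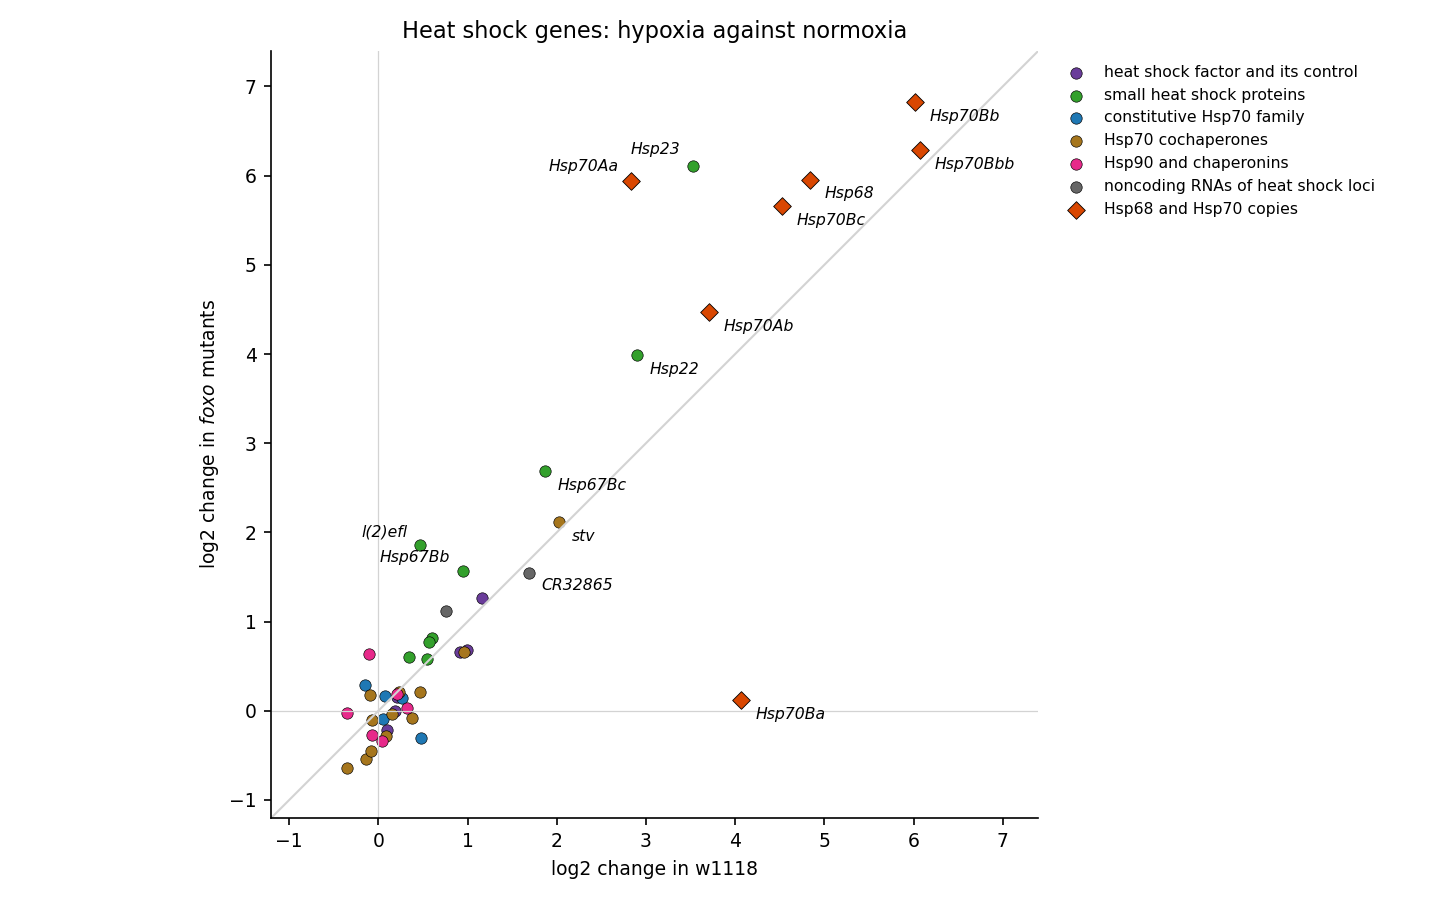
log2 change of TPM + 1 between hypoxia and normoxia in w1118 (x axis) and in *foxo* mutants (y axis) for the 7 genes (diamonds) and the 40 other tested heat shock genes (circles, coloured by list; the line marks equal change; genes above 1.5 in either genotype are named). The Hsp70 copies and *Hsp68* lie at the upper right apart from *Hsp70Ba* (4.07 and 0.12), and of the other genes *Hsp23* (3.53 and 6.11) comes nearest.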

How the data were processed

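The libraries were poly(A)-selected and directional, and the authors assigned reads to RefSeq mRNAs of dm6 with kallisto, whose version is not stated here. The deposited table holds TPM per transcript, which the authors scaled to a common total. TPM of 33973 transcripts with values were summed per gene. The authors' own tables of hypoxia-regulated genes (sleuth fold changes, p-values and q-values) were not used.

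Genes with a mean of at least 1 TPM in a group were kept. log2(TPM + 1) of the 4 groups was fitted in 1 model with limma 3.58.1 (R 4.3.3, trend in the variance), and p-values were Benjamini-Hochberg adjusted over all genes. Calls needed adjusted p under 0.05 and over 1.5-fold, the interaction and the gene lists adjusted p alone. Further fits replaced the 6 copies by their sum (10283 genes) or by an A and a B sum (10284 genes). Permutation tests were exact and two-sided. Annotation came from Ensembl release 115. On simulated data, 66% of 2-fold and 97% of 4-fold changes were recovered in w1118, 74% and 100% in the mutants, and 47% and 86% of such interactions. These changes were planted only in genes above a set mean level, with normal noise, and were counted at adjusted p alone. The rates may therefore not hold for copies that are near 0 in normoxia or share reads.

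The members and gene lists were chosen with earlier results of these data known. Named genes are the 7 members, their sums, *foxo*, all tested genes of the heat shock lists and the 5 genes most like *Hsp68* and the Hsp70 sum. Some tissue markers are named as well. *CG5608*, a neighbour of *Hsp70Ba*, was named after its values were seen. A planned search of promoters for motifs was not run.

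Same-numbered w1118 libraries had positive residual correlations (0.142, 0.374 and 0.177), which pairs them by the rule used. Same-numbered mutant libraries did not in every pair (0.2, -0.071, 0.139 and 0.331). Some pairs with unlike numbers reached similar values, such as w1118 normoxia 4 with hypoxia 2 (0.161) and mutant normoxia 1 with hypoxia 2 (0.395). These values therefore do not set same-numbered pairs clearly apart. The labels do not say what a number marks.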

Additional observations from a re-analysis of the deposited data

Results flagged for a closer look

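In 4 results the interaction, given as the change in w1118 minus the change in the mutants, was called. These were *Hsp68* (-1.12, limma adjusted p = 0.0402), *Hsp70Bc* (-1.13, adjusted p = 0.0307), the A sum (-1.11, adjusted p = 0.0444) and *Hsp70Ba* (3.95, adjusted p = 7.80e-06). The first 3 had the larger rise in the mutants, and *Hsp70Ba* rose in w1118 and stayed at or near 0 in the mutants. The first 3 calls are not stable. Those of *Hsp68* and *Hsp70Bc* were each lost in 10 of 15 omissions of a library and with a pseudocount of 0.1 (adjusted p = 0.051 and 0.132), and that of the A sum in 13 of 15 omissions and in 5 of 8 other settings, the replicate block among them (adjusted p = 0.0755). The *Hsp70Ba* call held in 8 of 8 other settings, but TPM cannot tell a missing or divergent copy in the mutant stock from a copy that was not transcribed. *Hsp70Ba* also passed the filter only through w1118 hypoxia, where it is high. The interaction of the Hsp70 sum, which does not depend on how shared reads were divided, was not called (-0.98, limma adjusted p = 0.0714). The cause of these differences was not tested.

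A single library stood apart in its group by Dixon's test. The first mutant normoxic library held 1.55 TPM of summed B copies, the lowest of its group, with a gap of 0.836 of the group's range to the next library. The test was run on 30 groups of 4 values, and chance alone flags about 1 group in 20.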

How the results depend on the processing

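The rises of the Hsp70 sum, *Hsp68* and the A and B sums in each genotype kept their direction and call under other pseudocounts (0.1 and 5), filters (none, 5 TPM), scalings, no trend in the variance, separate fits, the replicate block and every omission of a library. The number of members called was 7 in w1118 and 6 in the mutants in all 15 omissions. The differences between genotypes were less stable. With a pseudocount of 0.1 the *Hsp68* interaction was -1.25 (limma adjusted p = 0.051), 1 member was called for the interaction in place of 3, and 2 in normoxia in place of 0. The interaction of the Hsp70 sum was -1.28 after median-of-ratios and -1.27 after trimmed mean scaling (adjusted p = 0.0132 and 0.0134), both called. When single libraries were left out, the *Hsp68* interaction ranged from -1.26 to -1.01, that of the Hsp70 sum from -1.13 to -0.81, the hypoxic difference of the sum from 0.59 to 0.83, the members called for the interaction from 1 to 3 and those in normoxia from 0 to 1. Signs turned only for values that were not called, namely the *Hsp70Bbb* interaction (0.94, pseudocount 0.1), *Hsp70Aa* in normoxia (-0.027 without mutant normoxia library 2, and -0.027 to 1.15 over all omissions) and the B sum in normoxia, which is -0.0026 and became 0.0015 with a pseudocount of 5, 0.024 with the replicate block, 0.042 without w1118 normoxia library 3 and 0.11 without mutant normoxia library 1 (-0.051 to 0.11 over all omissions). The replicate block changed no other call than that of the A sum interaction (-1.04, adjusted p = 0.0755), which was also lost with no filter, a filter at 5 TPM, a pseudocount of 0.1 and no trend in the variance (-1.11, -1.11, -1.14 and -1.11, adjusted p = 0.0593, 0.0512, 0.0561 and 0.0541). The rises of *Hsp70Bbb*, *Hsp70Bb* and *Hsp70Bc* changed in size with the pseudocount but kept their calls. The cause of these changes was not tested. TPM keep no depth, so counting error, which matters most for copies below 1 TPM, could not be assessed.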
